A study of Citrus trifoliata and Citrus junos with 20 samples.

Results

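csi-miR159 and csi-miR319 are 2 of the 100 distinct miRNAs listed with read counts for citrus roots, and they were taken by name from the list of known miRNAs. In plants, the miR159 family guides the cleavage of mRNAs of GAMYB-like MYB transcription factors, which act in gibberellin signalling and programmed cell death. The related miR319 family acts on a group of TCP transcription factors, which restrain cell division in growing organs, and in Arabidopsis it can also act on MYB mRNAs because the 2 sequences are so alike. Both families are among the oldest of land plants. Their names here rest on the deposited list and on the sequences shown next.

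The study set an alkaline-tolerant rootstock, Ziyang xiangcheng (Citrus junos, Cj), against an alkaline-sensitive one, trifoliate orange (Poncirus trifoliata, Pt). Roots were taken after 8 weeks of hydroponic growth at the normal pH of 6.5 or at an alkaline pH of 8.0 or 9.5. This gave 6 groups of 3 small RNA libraries, with 3 seedlings pooled for each. Separate culture vessels for the pools are not stated, and the p-values therefore describe the spread among these pools alone. Reads of both rootstocks were matched to the genome of another citrus species, Citrus sinensis, and what this does to counts in either rootstock was not tested. The library Pt pH 8.0 replicate 1 had the fewest listed miRNA reads, 77255, and the highest number in a library was 771522. The paper reports clean read numbers that are far higher and differ less between libraries, so listed reads do not measure sequencing depth. Why this library had so few was not tested. The reads of csi-miR159 per library ranged from 26709 to 300016 and those of csi-miR319 from 1807 to 15716, the lowest of each again in Pt pH 8.0 replicate 1. Both had enough reads to be tested.

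The mature sequences show how close the members are. They are written from the 5′ to the 3′ end with the seed, bases 2 to 8, in capitals.
csi-miR159: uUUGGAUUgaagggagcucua
csi-miR319: uUUGGACUgaagggagcuccu
Both are 21 nt long and share 18 bases. Counted from the 5′ end of csi-miR159, the substitutions to csi-miR319 are U7C, which lies in the seed, U20C and A21U. Among the other 99 listed miRNAs, 0 carry either seed, and the only one within 5 mismatches of either member is the other member. The next nearest listed sequence differs from each at 10 bases. As the last of these substitutions lie at the 3′ end, reads that end before them differ between the members at position 7 alone. Shorter or longer reads of either miRNA, and reads from further loci of either family, were not told apart in the deposited counts.

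The deposited precursors differ more than the mature forms. That of csi-miR159 is 216 nt long with the mature sequence at bases 186 to 206, and that of csi-miR319 is 123 nt long with the mature sequence at bases 90 to 110. Both mature sequences lie on the 3′ arm, and 19 of their 21 bases are paired in the structure computed with RNAfold. Between the mature sequence and the stretch that faces it lie 153 bases in csi-miR159 and 32 in csi-miR319. The facing stretches are shown because they form the duplex with the mature miRNA, with the bases paired to the mature miRNA in capitals.
csi-miR159 opposite arm: UGGAGCUCCUUgaAGUCCAAA
csi-miR319 opposite arm: AGGGGUUCCUUgCGGcCCAAA

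Candidate target sites that the study listed for these miRNAs from its degradome data illustrate how the shared bases bear on pairing. The sites are written 5′ to 3′ as DNA, bases in Watson-Crick pairs with the miRNA are in capitals, and positions are counted from the 5′ end of the miRNA.
Cs3g06390 site facing csi-miR159: TgGAGCTCCCTTCAcTCCAAt
Cs3g06390 site facing csi-miR319: tGGAGCTCCCTTCAcTCCAAt
orange1.1t03289 site facing csi-miR159: TAGAGtTCCtcTCAATCCAgA
Cs3g06390 is annotated as a transcription factor GAMYB, and its site is the same 21 bases for both members. With csi-miR159 it forms 18 Watson-Crick pairs and 1 G-U pair at position 20, with mismatches at positions 1 and 7. With csi-miR319 it also forms 18 Watson-Crick pairs, with mismatches at positions 1, 7 and 21. The site of orange1.1t03289 forms 17 Watson-Crick pairs and 3 G-U pairs with csi-miR159 and has 1 mismatch, at position 11. For this gene no annotation was found in the sources used, and the study listed it for csi-miR159 and not for csi-miR319. No gene annotated as a TCP factor was found among those listed for either member. Pairing is a description of these letters, and cleavage at the sites was not analysed here.

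csi-miR159 was the most abundant listed miRNA in all 18 libraries. In Cj it held between 31.7% and 33.9% of the listed miRNA reads in the libraries grown at pH 6.5, between 26.5% and 28.04% at pH 8.0, and between 26.5% and 30.9% at pH 9.5. In Pt it held between 36.5% and 40.4% at pH 6.5, between 34.6% and 38.9% at pH 8.0, and between 40.02% and 42.2% at pH 9.5. Every Pt library lay above every Cj library, the nearest being 34.6% in Pt pH 8.0 replicate 1, with the fewest listed reads, and 33.9% in Cj. The 95% Wilson interval of that Pt share was 34.2% to 34.9%, and that of the Cj share 33.8% to 34.1%. Without molecular tags on the reads, such intervals speak to counting error alone. How many other listed miRNAs separate the rootstocks in this way was not counted. csi-miR159 had from 3.65 to 6.76 times the reads of the miRNA ranked second in the same library. The second place went to csi-miR166c in 11 libraries, csi-miR166d in 5, csi-miRN49 in 1 and csi-miRN51 in 1.

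csi-miR319 was an order of magnitude scarcer and ranked from 9 to 21 among the listed miRNAs. In Cj its share was 2.03%, 2.06% and 2.00% at pH 6.5, 1.43%, 1.31% and 1.55% at pH 8.0, and 1.50%, 1.76% and 1.92% at pH 9.5. In Pt it was 1.97%, 1.78% and 2.34% at pH 6.5, 2.34%, 1.80% and 1.96% at pH 8.0, and 2.37%, 1.83% and 2.08% at pH 9.5. The lowest were the 3 Cj libraries at pH 8.0 and replicate 1 of Cj at pH 9.5, and the Pt libraries overlapped at all pH levels. Its rank was 19 to 21 in Cj at pH 8.0, 14 to 17 in the other Cj libraries and 9 to 13 in Pt. Together both miRNAs took 31.5% ± 3.19 of the listed reads in Cj and 40.7% ± 2.36 in Pt (SD, n = 9).

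**Figure D1:**
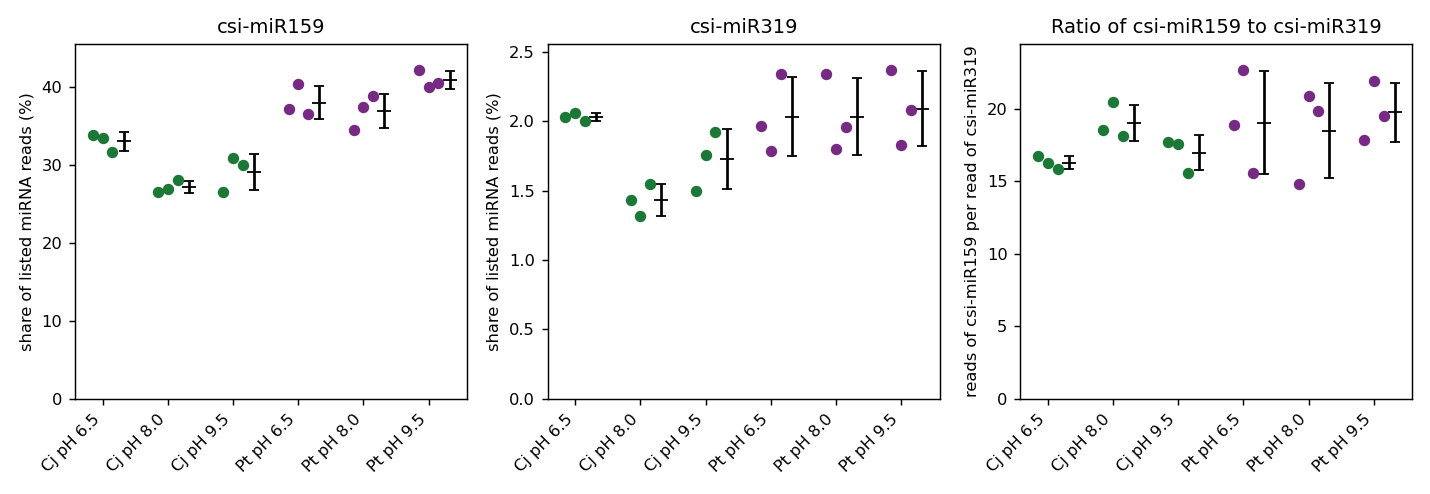
Share of listed miRNA reads held by csi-miR159 and by csi-miR319 (percent), and reads of csi-miR159 per read of csi-miR319, in each of the 18 libraries (points, Cj green and Pt purple) with the group mean ± SD (n = 3) beside them. The csi-miR159 share of every Pt library, 34.6% or more, is above that of every Cj library, 33.9% or less, while the ratio overlaps between the rootstocks. Such separation was not counted for other miRNAs.

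A share falls when other miRNAs rise, so levels were also compared as normalised CPM, listed reads set to a common library size and scaled with TMM factors that align the bulk of the miRNAs between libraries. The factors ranged from 0.993 to 1.33 in Cj and from 0.740 to 0.997 in Pt, so this scaling raises Pt levels relative to Cj levels. Without the factors, the median log2 difference of all 96 tested miRNAs between Pt and Cj moved by -0.24 at pH 6.5, -0.53 at pH 8.0 and -0.52 at pH 9.5. Both versions of each member's difference are therefore given below.

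In CPM with TMM factors, the means of the 6 groups fell in the same order for both members. The order of Pt at pH 6.5 and Pt at pH 8.0 depends on the scaling and turned for both members without TMM factors. By mean share of listed reads, csi-miR159 was lower in Pt at pH 8.0 than at pH 6.5, while csi-miR319 hardly differed. The mean CPM of csi-miR159 was 216647 ± 20089 in Cj at pH 8.0, 263839 ± 52261 in Cj at pH 9.5 and 298190 ± 16172 in Cj at pH 6.5 (SD, n = 3). It was 405328 ± 34368 in Pt at pH 6.5, 423466 ± 67229 in Pt at pH 8.0 and 527580 ± 18959 in Pt at pH 9.5. Neighbours in this order overlapped in their libraries, except Cj at pH 6.5 with Pt at pH 6.5 and Pt at pH 8.0 with Pt at pH 9.5. The mean CPM of csi-miR319 was 11447 ± 1683, 15701 ± 3941 and 18299 ± 606 in the same 3 Cj groups, and 21594 ± 2721, 22971 ± 1176 and 26914 ± 3130 in the same 3 Pt groups. All neighbours of csi-miR319 in this order overlapped in their libraries.

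In Cj, both members were lower at pH 8.0 than at pH 6.5. The CPM of csi-miR159 was 307809, 307241 and 279519 at pH 6.5 and 207939, 202380 and 239621 at pH 8.0, so the groups did not overlap. The log2 fold change was -0.46 ± 0.14 (SE), with an adjusted p of 0.0103 by edgeR's quasi-likelihood test. The CPM of csi-miR319 was 18386, 18857 and 17655 at pH 6.5 and 11218, 9890 and 13232 at pH 8.0, again without overlap. For the other tested miRNAs overlap was not counted, here or in the comparisons below. Its log2 fold change was -0.68 ± 0.17 with an adjusted p of 0.00299 by edgeR. In this comparison 36.5% of the 96 tested miRNAs were called, 25.0% as lower, and the median log2 fold change of all was 0.03. Without TMM factors the calls split into 21 higher and 15 lower, in place of 11 and 24. The call of csi-miR159 is the weaker of these: it was lost with DESeq2 (adjusted p = 0.0806) and held in 6 of 18 fits that left out 1 library. That of csi-miR319 held in 17 of 18 and was lost without Cj pH 8.0 replicate 2, with a log2 fold change of -0.48 and an adjusted p of 0.0572 by edgeR.

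At pH 9.5 the Cj libraries were spread widely for both members. The CPM of csi-miR159 was 204304, 285068 and 302145, and that of csi-miR319 was 11537, 16192 and 19374. Replicate 1 was low for both and lay within the range of pH 8.0, and the others lay in or near the range of pH 6.5. Against pH 6.5 neither change passed the test, with log2 fold changes of -0.18 ± 0.14 for csi-miR159 and -0.22 ± 0.17 for csi-miR319 (edgeR adjusted p = 0.286 for each, 28.1% of miRNAs called). These values moved from -0.28 to -0.043 and from -0.37 to -0.066 when 1 library was left out. Without TMM factors that of csi-miR159 was again -0.18 and was called (adjusted p = 0.0253 by edgeR). Against pH 8.0 they were 0.28 ± 0.14 and 0.46 ± 0.17 (edgeR adjusted p = 0.186 and 0.0815, 9.38% of miRNAs called). Leaving out 1 library moved the former between 0.079 and 0.31 and the latter between 0.21 and 0.51. Without Cj pH 9.5 replicate 1 the latter was 0.51, with an adjusted p of 0.0329 by edgeR. As shares of listed reads, both members were lower in all 3 Cj libraries at pH 9.5 than in any at pH 6.5, although an exact permutation test of 3 against 3 cannot go below its value of p = 0.10.

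In Pt, csi-miR159 rose at pH 9.5 and csi-miR319 did not pass the test. The CPM of csi-miR159 was 431092, 418586 and 366306 at pH 6.5, 346846, 450968 and 472584 at pH 8.0, and 522072, 511985 and 548683 at pH 9.5. All libraries at pH 9.5 were above all others of Pt, while pH 6.5 and 8.0 overlapped. The log2 fold change at pH 9.5 against 6.5 was 0.38 ± 0.14, with an adjusted p of 0.0331 by edgeR, in a comparison where 30.2% of miRNAs were called, 16.7% as higher (16 higher and 13 lower, or 9 and 22 without TMM factors). This call depends on the scaling: without TMM factors the log2 fold change was 0.11 and the adjusted p 0.225 by edgeR, and the shares of the groups overlapped. It was also lost with DESeq2 (adjusted p = 0.0746) and held in 8 of 18 fits that left out 1 library, with log2 fold changes from 0.31 to 0.53 and edgeR adjusted p-values from 0.0229 to 0.151. Against pH 8.0 the log2 fold change at pH 9.5 was 0.32 ± 0.14 (edgeR adjusted p = 0.121, 17.7% of miRNAs called).

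The CPM of csi-miR319 in Pt was 22805, 18478 and 23498 at pH 6.5, 23466, 21628 and 23819 at pH 8.0, and 29279, 23364 and 28098 at pH 9.5. Neighbouring pH levels overlapped, with replicate 2 the lowest at each. Its log2 fold change was 0.32 ± 0.17 at pH 9.5 against 6.5 and 0.23 ± 0.17 at pH 9.5 against 8.0, with adjusted p of 0.165 and 0.367 by edgeR. Without TMM factors these changes were 0.041 and 0.043. At pH 8.0 against 6.5 both members were near 0 in Pt, with log2 fold changes of 0.06 ± 0.14 for csi-miR159 and 0.09 ± 0.17 for csi-miR319 (edgeR adjusted p = 0.815 and 0.799, 9.38% of miRNAs called). The sign of both turned without TMM factors, to -0.041 and -0.0012.

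With TMM factors, the largest differences of both members were between the rootstocks. For csi-miR319 this depends on the scaling: with library sizes from the TPM totals its fall in Cj at pH 8.0 was -0.64 and its differences between the rootstocks were at most 0.53, and without TMM factors these were -0.50 and 0.50. csi-miR159 was higher in Pt than in Cj at each pH, and at each the libraries did not overlap, which was not counted for other miRNAs. In order of rising pH its log2 difference was 0.44 ± 0.14, 0.97 ± 0.14 and 1.00 ± 0.14, with adjusted p of 0.00586, 8.77e-07 and 4.72e-07 by edgeR. Of the tested miRNAs 63.5%, 59.4% and 59.4% were called in these comparisons, so a call was the more common outcome, 29.2%, 32.3% and 29.2% were called as higher in Pt, and csi-miR159 ranked 71 of 96 by size of difference at pH 6.5. Without TMM factors the differences of csi-miR159 were 0.20, 0.44 and 0.49 and each was called, although only 24, 16 and 13 miRNAs were then called as higher in Pt and 41, 42 and 52 as lower. The call at pH 6.5 was lost without Cj pH 6.5 replicate 3 (0.39, adjusted p = 0.0715 by edgeR) and without Pt pH 6.5 replicate 2 (0.34, adjusted p = 0.106). By share of listed reads, Pt exceeded Cj by 8.86 percentage points, with means of 38.6% ± 2.40 and 29.8% ± 2.92 (SD, n = 9). Permuting the rootstock labels within each pH gave p = 0.00025 by an exact two-sided test, the smallest it can give, and 0.003 after adjustment over 12 tests of shares and ratios. In roots, more cells of a type and more of the miRNA per cell cannot be told apart.

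csi-miR319 was higher in Pt at pH 8.0 and 9.5 and did not pass the test at pH 6.5. Its log2 difference was 1.00 ± 0.17 at pH 8.0 and 0.78 ± 0.17 at pH 9.5, with adjusted p of 1.20e-05 and 0.000248 by edgeR and no overlap between the libraries in CPM with TMM factors. At pH 6.5 it was 0.24 ± 0.17 with an adjusted p of 0.206 by edgeR, and Pt pH 6.5 replicate 2 lay within the Cj range. Without TMM factors the differences were 0.0019, 0.50 and 0.28, and the last was no longer called (edgeR adjusted p = 0.0711). By share, Pt exceeded Cj by 0.32 percentage points over the 3 pH levels (exact permutation p = 0.015, adjusted p = 0.09). At pH 9.5 the rootstocks overlapped by share, with 1.83% in Pt replicate 2 and 1.92% in Cj replicate 3.

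**Figure D2:**
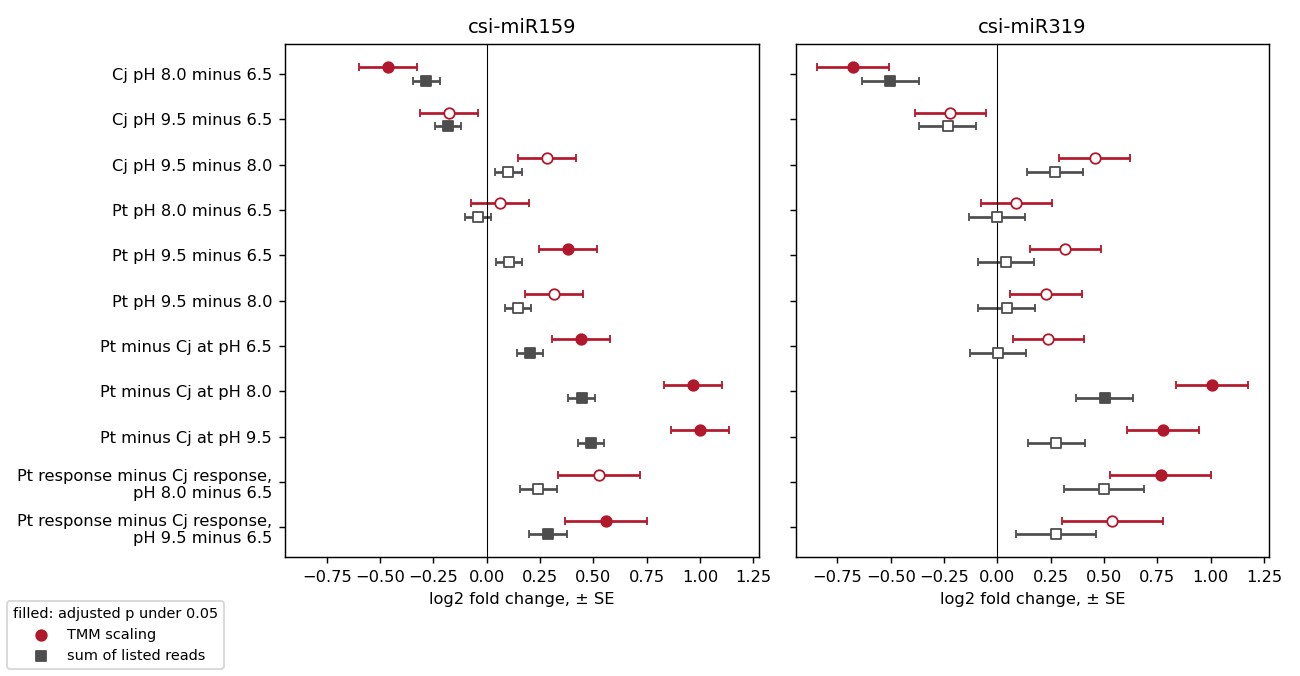
Log2 fold changes ± SE of csi-miR159 and csi-miR319 in the 6 comparisons between pH levels, the 3 between rootstocks and the 2 differences in response, from the edgeR fit with TMM factors (circles) and from sums of listed reads without them (squares). Filled symbols have an adjusted p under 0.05. The differences between rootstocks at pH 8.0 reach 0.97 and 1.00 with TMM factors and 0.44 and 0.50 without.

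The response to pH was compared between the rootstocks as a difference of differences. For csi-miR319 the Pt response to pH 8.0 exceeded the Cj response by 0.77 ± 0.24 on the log2 scale (edgeR adjusted p = 0.0358, 10.4% of miRNAs called). This call held in 3 of 18 fits that left out 1 library, with adjusted p from 0.0195 to 0.164, and was lost with DESeq2 (adjusted p = 0.0885). For csi-miR159 the same difference was 0.52 ± 0.19 (edgeR adjusted p = 0.0778). At pH 9.5 the difference was 0.56 ± 0.19 for csi-miR159 (edgeR adjusted p = 0.0405, 18.8% of miRNAs called) and 0.54 ± 0.24 for csi-miR319 (adjusted p = 0.104). The call of csi-miR159 was lost whichever of the 18 libraries was left out, with values from 0.41 to 0.66 and adjusted p from 0.0569 to 0.175. All 4 differences were positive in every fit, also without TMM factors, where they ran from 0.24 to 0.50. The comparisons at pH 8.0 and 9.5 share the libraries at pH 6.5.

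The ratio of csi-miR159 to csi-miR319 does not depend on how libraries are scaled. In Cj it was 16.7, 16.3 and 15.8 at pH 6.5, 18.5, 20.5 and 18.1 at pH 8.0, and 17.7, 17.6 and 15.6 at pH 9.5. In Pt it was 18.9, 22.7 and 15.6 at pH 6.5, 14.8, 20.9 and 19.8 at pH 8.0, and 17.8, 21.9 and 19.5 at pH 9.5. The ratio thus stayed between 14.8 and 22.7, and within Pt its group SD of 2.05 to 3.53 exceeded the 0.455 to 1.25 of the Cj groups. The counting error of the log2 ratio was 0.035 in the library with the fewest listed reads and 0.025 or less in the others, while the SD of the log2 ratio within groups was 0.040 to 0.27.

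The log2 ratio was 4.12 ± 0.12 in Cj and 4.24 ± 0.21 in Pt (SD, n = 9). The difference of 0.12 did not pass the exact permutation test within pH levels (p = 0.168, adjusted p = 0.337). Between pH levels, with rootstock as stratum, the log2 ratio differed by 0.09 for pH 8.0 against 6.5, 0.06 for 9.5 against 6.5 and -0.03 for 9.5 against 8.0, with exact permutation p of 0.44, 0.52 and 0.785. In Cj alone the 3 libraries at pH 8.0 were above those at both other pH levels, by 0.22 against pH 6.5 and with 9.5 lower by 0.17 than 8.0. These comparisons reached p = 0.10, the smallest an exact test of 3 against 3 allows.

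Across libraries the members moved together more closely in Cj than in Pt, a difference that was not tested. In the 9 Cj libraries Pearson's r of the log2 CPM was 0.98 (exact permutation p = 0.000116, adjusted p = 0.000463 over 12 correlations) and Spearman's rho 0.90 (exact p = 0.00203, adjusted p = 0.00406). Without the 2 libraries farthest from the median of csi-miR159, r was 0.98. In the 9 Pt libraries r was 0.51 (exact permutation p = 0.156, adjusted p = 0.194) and rho 0.52 (exact p = 0.162, adjusted p = 0.194), and r was 0.87 without the 2 farthest, Pt pH 6.5 replicate 3 and Pt pH 8.0 replicate 1. Both rows share the scaling of their library, and by share of listed reads r was 0.94 in Cj (exact permutation p = 0.00102, adjusted p = 0.00306) and -0.22 in Pt (exact p = 0.57, adjusted p = 0.622). Over all 18 libraries r of the log2 CPM was 0.93 and rho 0.91 (permutation p = 1e-05 for each, the smallest that 100000 permutations can give, adjusted p = 6e-05). That value spans the gap between the rootstocks and was 0.91 without the 2 farthest libraries. The permutations moved libraries freely across pH levels, and over all 18 also across rootstocks. Shifts that both members share between groups therefore add to r and lower its p, in Cj as well. Association within groups was not tested.

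**Figure D3:**
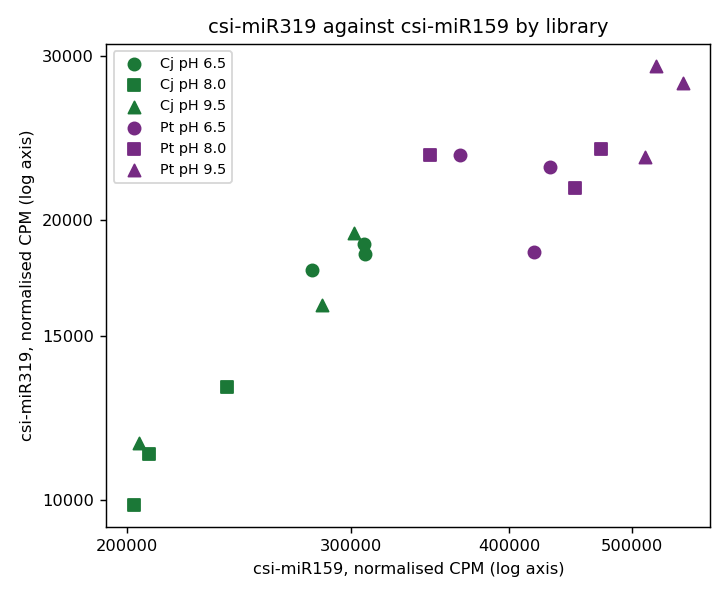
Normalised CPM of csi-miR319 against that of csi-miR159 in the 18 libraries, both on log axes, with Cj green and Pt purple and a symbol for each pH. The Cj libraries lie along a line (r = 0.98 over 9) from the 3 libraries at pH 8.0 and 1 at pH 9.5 upwards, and the Pt libraries scatter more (r = 0.51 over 9).

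Over the 18 libraries, each member was the miRNA most like the other by Pearson's r. Among the 95 other tested miRNAs, csi-miR319 had the highest Pearson r with csi-miR159 over the 18 libraries, 0.93, followed by csi-miRN23 with 0.89 and csi-miR166a with 0.87, and the median over all 95 was 0.07. With csi-miR319, csi-miR159 was followed by csi-miR164, whose family acts on NAC transcription factors, with 0.89 and csi-miR172a-3p, whose family acts on AP2-like factors, with 0.88. Within the rootstocks the order differed. csi-miRN23 and csi-miR166a had r of 0.40 and 0.30 with csi-miR159 in Cj and of 0.94 and 0.90 in Pt. With csi-miR319, csi-miR164 had 0.94 in Cj and 0.68 in Pt, and csi-miR172a-3p had 0.76 in Cj and 0.46 in Pt. Between the members r was 0.98 in Cj, above each of these Cj values. In Pt it was 0.51, above that of csi-miR172a-3p and below the other Pt values. These values are descriptions of libraries that share their total.

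For context, a list of 16 other miRNAs of families that act on transcription factors (SPL, ARF, NAC, class III HD-ZIP, GRAS, AP2-like and GRF) was counted. It does not hold whole families: by the deposited family names they have 26 listed miRNAs, and 10 of these are not on the list, among them csi-miRN09, csi-miRN20, csi-miRN28, csi-miRN49 and csi-miR479. All 26 were tested. csi-miR166a and csi-miR166e-3p on the list have nearly the same counts and are not independent. In Cj at pH 8.0 against 6.5, where both members fell, 6 of the 16 fell (37.5%, beside 25.0% of all 96 miRNAs) and the other 10 did not pass the test, with a median log2 fold change of -0.28 beside 0.03 over all. Over the 26, 3 rose and 7 fell (26.9%), a count added after the data were seen. At pH 9.5 against 6.5 in Cj, 2 of the 16 rose and 5 fell (12.5% and 31.2%, beside 12.5% and 15.6% of all), with a median of -0.03 beside 0.04. In Pt 1 rose and 4 fell (6.25% and 25.0%, beside 16.7% and 13.5%), with a median of 0.04 beside 0.07. Over the 26, 4 rose and 7 fell in Cj, and 3 rose and 6 fell in Pt. On the list, the largest called change at pH 9.5 against 6.5 was that of csi-miR171b, whose family acts on GRAS factors, in both rootstocks, at -1.55 ± 0.34 in Cj and -2.95 ± 0.52 in Pt (edgeR adjusted p = 0.000642 and 5.24e-05). csi-miR171b was scarce, with a mean of 48.2 CPM (SD 39.7) over all libraries and rank 88 of the 96 tested miRNAs.

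Between the rootstocks 6 of the 16 were higher in Pt at each pH (37.5%, beside 29.2%, 32.3% and 29.2% of all in order of rising pH). At pH 6.5, 4 were lower (25.0%, beside 34.4%), and 3 were lower at each of the others (18.8%, beside 27.1% and 30.2%). The medians in order of rising pH were 0.04, 0.31 and -0.08 beside -0.04, 0.19 and -0.09 over all. Over the 26, 11, 8 and 7 were higher and 7, 4 and 5 lower. At each pH csi-miR166a, csi-miR166c and csi-miR166e-3p, of the same family, were among those higher in Pt. The list and the 26 were counted with TMM factors only, here and above. Without these factors fewer of all tested miRNAs were called as higher in Pt, 24, 16 and 13 in order of rising pH. The largest on the list were csi-miRN43, of the family that acts on ARF factors, at -1.62 ± 0.20 at pH 6.5 (edgeR adjusted p = 8.98e-08), and csi-miR171b at -2.36 ± 0.42 and -2.94 ± 0.53 at pH 8.0 and 9.5 (adjusted p = 2.82e-05 and 3.05e-05).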

How the data were processed

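Small RNA of roots was sequenced in 18 libraries, 2 rootstocks at 3 pH levels with 3 pools each. The other 2 libraries of the series, degradomes, were not analysed here. The authors trimmed the reads, removed structural RNA and repeats with Bowtie, matched the rest to the Citrus sinensis genome (release not given in the sources used here) and to miRBase, and predicted further miRNAs with miRDeep2. The deposited counts are whole reads per mature miRNA. The authors also deposited TPM, by their account counts relative to the total mapped reads of the library, with no length term. Counts divided by TPM gave totals of 125084 to 1034566 reads, called TPM totals here. The paper reports far more clean and unannotated reads for its small RNA libraries, and which reads the TPM totals cover is not known. The score deposited by the authors for predicted precursors was not used. Repeated lines (3) and a line without values (1) were dropped.

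Counts were fitted with edgeR 4.0.16 in R 4.3.3 (quasi-likelihood F test, TMM factors on sums of listed reads, filterByExpr with minimum count 10 and total 15, 1 mean per group over all 18 libraries), which left 96 of 100 miRNAs. The study used DESeq 1.10.1 on pairs of groups, for which edgeR stands in. A miRNA was called at a Benjamini-Hochberg adjusted p under 0.05. The SE was derived from the log2 fold change and F. The scripts were tested on simulated data. Shares and log2 ratios were compared by exact two-sided permutation. Alternatives were DESeq2 1.42.0, limma-voom 3.58.1, other scalings and filters, fits of the groups compared only, a replicate block and leaving out each library. Replicates differed by more than counting noise. Named were the members, the 3 miRNAs most correlated with each, the most abundant miRNAs and, from a list of 16 of families that act on transcription factors, the largest called change between rootstocks and at pH 9.5 against 6.5. The members and lists were chosen with earlier results of these data known. Sequences are those deposited, and target sites are from the study's supplementary list.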

Additional observations from a re-analysis of the deposited data

Results flagged for a closer look

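The response of csi-miR319 to pH 8.0 against 6.5 passed the test of a difference between the rootstocks, at 0.77 on the log2 scale (Pt response minus Cj response, edgeR adjusted p = 0.0358), but this call held in only 3 of 18 fits that left out 1 library and 3 of 10 other settings, and was lost with DESeq2 (adjusted p = 0.0885). Its level fell in Cj, with 3 libraries at pH 8.0 below all 3 at pH 6.5, and overlapped between these pH levels in Pt. The response of csi-miR159 to pH 9.5 against 6.5 also passed, at 0.56 (edgeR adjusted p = 0.0405), but its call was lost in all 18 fits that left out 1 library (adjusted p from 0.0569 to 0.175) and in 5 of 10 other settings. Which rootstock the difference lies in depends on the scaling. In CPM with TMM factors, 3 of 3 Pt libraries at pH 9.5 were above all at pH 6.5, while 2 of the 3 Cj libraries at pH 9.5 lay within the range of pH 6.5. Without TMM factors the rise in Pt was not called (0.11, edgeR adjusted p = 0.225) and the fall in Cj was (-0.18, edgeR adjusted p = 0.0253), and by share of listed reads all 3 Cj libraries at pH 9.5 lay below all at pH 6.5, while the Pt libraries overlapped.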

How the results depend on the processing

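The differences between Pt and Cj at pH 8.0 and 9.5 kept their direction in every fit, and those of csi-miR159 also their calls. That of csi-miR319 at pH 9.5 lost its call only without TMM factors (0.28). Its fall in Cj at pH 8.0 held in all 10 other settings. Calls of csi-miR159 were lost in Cj at pH 8.0 with library sizes that leave out the 5 most abundant miRNAs (-0.23), without a low-count filter (-0.40) and with DESeq2 (-0.34). In Pt at pH 9.5 against 6.5 its call was lost with the TPM totals (0.19), without the 5 most abundant (0.36), without TMM factors (0.11), without a filter (0.38) and with DESeq2 (0.36). Its difference in response at pH 9.5 was lost with the TPM totals (0.35), without the 5 most abundant (0.49), without a filter (0.52), with only the groups compared (0.55) and with DESeq2 (0.57). That of csi-miR319 at pH 8.0 was lost with DESeq2 size factors (0.63), the TPM totals (0.49), without the 5 most abundant (0.56), TMM factors from known miRNAs (0.52), no TMM factors (0.50), no filter (0.68) and DESeq2 (0.63). Gained calls were csi-miR159 in Pt at pH 9.5 against 8.0 with DESeq2 size factors (0.33), the TPM totals (0.37) and known miRNAs (0.36), csi-miR159 in Cj at pH 9.5 against 6.5 without TMM factors (-0.18), and csi-miR319 between rootstocks at pH 6.5 without the 5 most abundant (0.37). In Pt at pH 8.0 against 6.5 the direction turned with the TPM totals (-0.17 for csi-miR159 and -0.15 for csi-miR319) and without TMM factors (-0.041 and -0.0012). The causes were not tested.

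As a share of the TPM totals, csi-miR159 differed by -4.81 percentage points at pH 8.0 against 6.5 and 5.57 at 9.5 against 8.0, and csi-miR319 by 0.296 between rootstocks and 0.318 at 9.5 against 8.0, each now past the threshold, and csi-miR159 turned to 0.757 at 9.5 against 6.5. Listed miRNAs made up 65.5% to 70.1% of the TPM totals in Cj at pH 8.0. They made up 61.8% in Pt pH 8.0 replicate 1, beside 74.3% and 74.6% in the other Pt libraries at this pH. In the groups at other pH levels this share ranged from 71.8% to 83.2%.

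Leaving out 1 library at a time, csi-miR159 ranged from -0.46 to -0.31 in Cj at pH 8.0, from -0.011 to 0.22 and from 0.31 to 0.53 in Pt at pH 8.0 and 9.5, from 0.34 to 0.51 between rootstocks at pH 6.5 and from 0.41 to 0.66 in the response to pH 9.5. csi-miR319 ranged from -0.71 to -0.48 in Cj at pH 8.0, from 0.21 to 0.51 in Cj at pH 9.5 against 8.0, and from 0.56 to 0.83 and 0.38 to 0.68 in the responses to pH 8.0 and 9.5. The share of csi-miR159 ranged from -0.943 to 0.154 percentage points at pH 9.5 against 6.5 and from 2.38 to 3.63 at 9.5 against 8.0, that of csi-miR319 from 0.271 to 0.366 between rootstocks, and the log2 ratio from -0.0075 to 0.13 and from -0.11 to 0.017 at pH 9.5 against 6.5 and 8.0. The fits without a library of another group also move these values, since TMM factors and the shared spread use all libraries.

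Whether the replicate numbers pair the libraries is not stated, and the values here are too few and too spread to decide it. Deviations of same-numbered libraries from their group means correlated at a median of 0.03 (45 pairs), against -0.01 for differently numbered ones (90 pairs), and 8 of 18 libraries correlated best with their own number. A fit with the replicate number as a block changed no call of either member and gave 0.96 for csi-miR159 and 1.01 for csi-miR319 between rootstocks at pH 8.0. With this block, the miRNAs called in Cj at pH 9.5 against 6.5 were 18 higher and 22 lower, in place of 12 and 15. In Pt at pH 8.0 against 6.5 they were 5 and 3, in place of 5 and 4. Sign flips of same-numbered pairs left the share difference of csi-miR159 between rootstocks past the threshold (8.86, adjusted p = 0.0469 by the exact test).

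The number of miRNAs called, 9 in Pt at pH 8.0 against 6.5, was 22 with the TPM totals. The 10 called in the difference in response to pH 8.0 were 17 with the TPM totals, without TMM factors or with known miRNAs, and 5 and 6 without Cj pH 6.5 replicate 1 and Pt pH 8.0 replicate 3. The 18 at pH 9.5 were 31 without TMM factors and 29 without Pt pH 6.5 replicate 1. The 35 in Cj at pH 8.0 were 21 and 19 without Cj pH 6.5 replicate 3 and Cj pH 8.0 replicate 2, and the 17 in Pt at pH 9.5 against 8.0 were 11, 9 and 8 without Pt pH 8.0 replicate 2, Pt pH 8.0 replicate 3 and Pt pH 9.5 replicate 1. Counting error of the share was small beside the spread between pools for csi-miR159. For csi-miR319 in Cj at pH 6.5 it was as large, with an SD between pools of 0.0263 percentage points and a 95% Wilson interval of 1.98% to 2.07% in replicate 1.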
